A study of Mus musculus with 3 samples.

Results

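The genes described here are the 10 named genes that break down nucleotides, sense or remove adenosine and carry purines on to urate, namely Entpd1, Entpd5, Nt5e, Adora1, Adora2b, Adk, Ada, Pnp, Xdh and Uox. They were picked by symbol among the 23361 genes of the deposited tables, and all 10 were found in every sample. Of these, 9 reached an FPKM (fragments scaled by transcript length and by the number of fragments mapped) of 1 or more, and did so in all 3 samples. The exception was Adora2b. Among the 23361 genes, 10792 reached an FPKM of 1 in at least 1 sample, and these are the genes meant by all genes below. The mRNA of mouse liver was sequenced in 3 libraries, 1 per group, from C57BL/6J mice labelled male and 8 to 10 weeks old that had fasted for 12 h. The sham group had a laparotomy and its livers were taken after 90 min without occlusion. In the warm ischemia (WI) group the vessels to the left and median lobes, 70% of the liver, were clamped for 90 min. In the ischemia and reperfusion (IR) group the same 90 min of clamping preceded 120 min of reperfusion, so the IR livers were taken later after surgery than the sham livers, and time cannot be told apart from reperfusion. The study used 6 mice per group, and whether a library pools mice is not stated.

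ATP that leaves stressed or dying cells is cut outside the cell to AMP and then to adenosine, which acts on G protein-coupled adenosine receptors and dampens inflammation. Adenosine that is taken up is either rebuilt into AMP or broken down through inosine, hypoxanthine and xanthine to urate, and in mouse liver urate is oxidized further to allantoin. Hepatic ischemia is known for ATP loss and a build-up of adenosine and hypoxanthine, and xanthine oxidase acting on hypoxanthine upon reperfusion is a classical candidate source of reactive oxygen species. The data here are mRNA levels and hold no metabolite or enzyme activity.

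With a single library per group, no difference has a replicate check and no p-value was computed. Each FPKM came with lower and upper 95% bounds from the model of the FPKM software, which hold no measured variation between mice of a group. In sham the relative standard deviation they correspond to was 23.1% for Nt5e at an FPKM of 10.7 and 36.7% for Uox at 822. The bounds thus do not hold the error of counting fragments alone, and how the model set their width is not stated. Differences are on a log2 scale after 1 was added to each FPKM, followed by a standard error (SE) derived from those bounds. The threshold for a change was a factor of 2 in FPKM + 1. FPKM summed over the whole table to 475754 in sham, 487912 in WI and 712423 in IR, and the major urinary protein (Mup) genes made up 2.33%, 2.11% and 12.6% of it. The labels call all 3 libraries male, but Xist, the RNA that silences an X chromosome in female cells, had FPKM of 18.9, 20.1 and 1.29 in sham, WI and IR. The Y-linked gene Eif2s3y was listed at 0 in sham and WI and reached 13.2 in IR. The sham and WI libraries thus went against their label, and in every comparison with the IR sample sex cannot be told apart from reperfusion. No value could be given without these libraries, since each is the only one of its group. Albumin was listed at 0 in all samples because its locus held too many fragments for the software, while the 5 other hepatocyte markers examined had summed FPKM of 18926, 14492 and 19618 in sham, WI and IR. The status for too many fragments was given to 1 gene in sham, 1 in WI and 7 in IR, albumin included. A gene listed at 0 for that reason is missing from the summed FPKM and from the rescalings built on it. In counts over all genes it can pass as lower. The effect on comparisons with the IR sample was not tested.

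As deposited, the largest differences among the 10 genes were those of Pnp and Nt5e between IR and sham, in opposite directions, with overlapping bounds. Pnp, which splits inosine and guanosine into free bases, was higher in the IR sample than in sham by 1.11 on the log2 scale, or by 0.54 with FPKM rescaled to a common sum, and Nt5e, the cell surface enzyme that makes adenosine from AMP, was lower, at -0.94 and -1.53 on the same scales. Adora2b, the low-affinity adenosine receptor, was close to undetected in sham and WI and had a lower bound above 0 in IR alone. Xdh, Uox and Adk, which encode the xanthine, urate and adenosine kinase steps, showed smaller differences as deposited, each within 1 SE of 0 in every comparison. Rescaled to a common sum, Uox differed by -0.96 and Adk by -0.77 between IR and WI and Adk by -0.67 between IR and sham, beyond their SE of 0.78, 0.63 and 0.61. That rescaling put the median of all genes at -0.45 in both comparisons. Relative to the median the 3 values were -0.50, -0.32 and -0.21, within their SE. Of the 9 genes that reached an FPKM of 1, 0 changed at least 2-fold from sham to WI, 0 from WI to IR and 1, Pnp, from sham to IR. Among all 10792 genes the same threshold was passed by 1.85%, 7.21% and 7.5%. The bounds did not overlap for 0 of the 9 genes in each of the 3 comparisons, beside 0.676%, 3.61% and 3.82% of all genes in the same order. The 9 genes had a median difference of 0.14 for WI against sham, 0.099 for IR against WI and -0.088 for IR against sham, where the medians over all genes were 0.015, 0.027 and 0.055. A share of 1 in 9 genes is near the background of 7.5%, so the account that follows is of single genes.

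**Figure D1:**
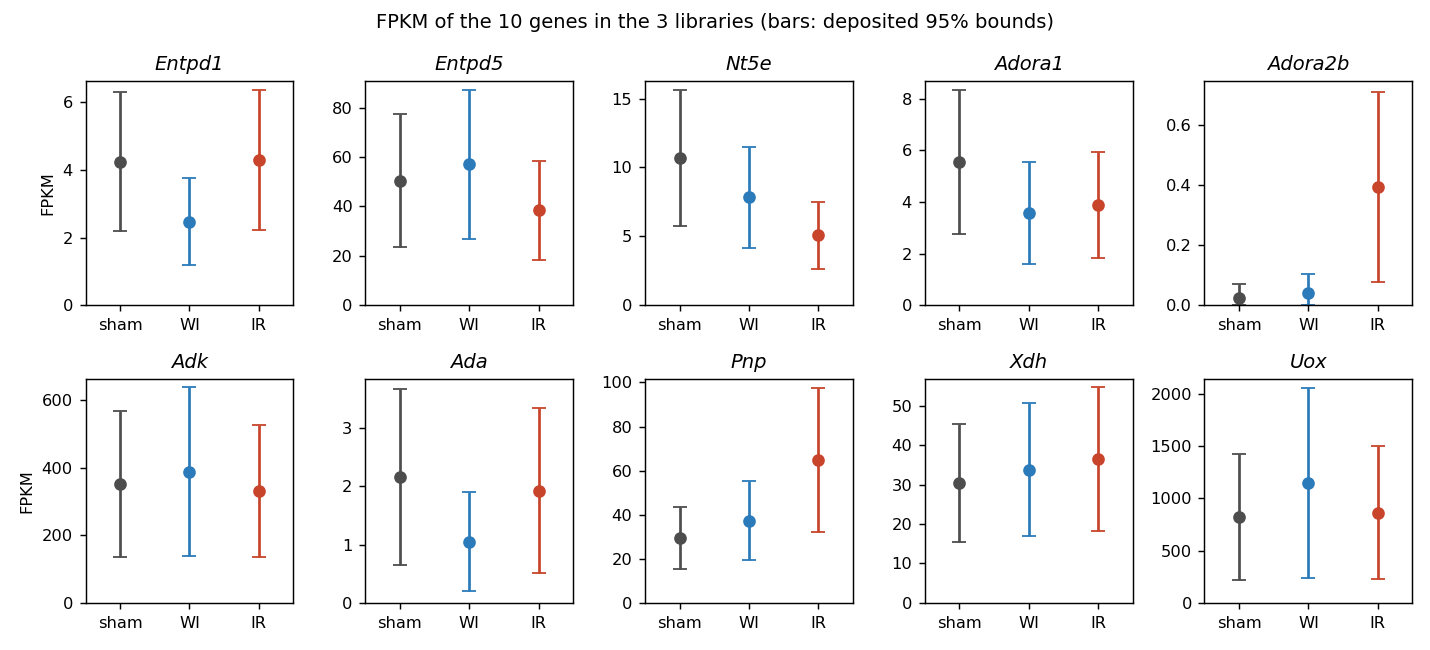
FPKM (linear axis from 0, a scale for each gene) in the sham, WI and IR libraries, with points for the deposited FPKM and bars for its 95% bounds, 1 library per group. Pnp rises from 29.6 to 64.8 between sham and IR and Nt5e goes from 10.7 to 5.07, with bounds that still overlap, while for Adora2b the IR lower bound of 0.0766 lies above the sham upper bound of 0.0692.

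The levels of the 10 genes spanned a wide range, which per length of transcript can be compared between genes. In the sham sample Uox had the highest FPKM and made up 62.9% of the sum of the 10 genes, followed by Adk, Entpd5, Xdh, Pnp, Nt5e, Adora1, Entpd1, Ada and Adora2b. Along that order the bounds of neighbours overlapped except between Adk and Entpd5 and between Ada and Adora2b. In the WI sample Pnp stood above Xdh, and the bounds of Xdh and Nt5e no longer overlapped. In the IR sample Pnp ranked above both Entpd5 and Xdh, and the bounds were apart between Adk and Pnp and between Xdh and Nt5e. The uricase and adenosine kinase mRNAs thus led in all 3 samples, and the receptors, Entpd1 and Ada formed the low end.

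Among the ectonucleotidases, Entpd1 (CD39, on chromosome 19 of mm10 from 40659794 to 40741602) takes ATP and ADP to AMP on the surface of endothelial and immune cells. Its FPKM was 4.24 in sham (95% bounds 2.19 to 6.30), 2.48 in WI (1.19 to 3.76) and 4.30 in IR (2.22 to 6.37). It was thus lowest after ischemia and stood at the sham level after reperfusion, with overlapping bounds throughout. The difference was -0.59 (SE 0.39) between WI and sham and 0.61 (SE 0.39) between IR and WI, and 4.16% of all genes had a lower value in the first of these comparisons. The WI sample enters both, so a low value in that library alone gives both moves. In the WI sample 6 of 6 sinusoidal endothelial markers were also lower than in sham, with a summed FPKM of 154 in sham, 117 in WI and 118 in IR, and so were 6 of 6 Kupffer cell and macrophage markers (438, 224 and 152). Of the endothelial markers, Lyve1 alone was higher in IR than in sham and WI, at an FPKM of 11.2 in sham, 2.73 in WI and 33.4 in IR. The other 5 were lower in IR than in WI. Of the Kupffer cell and macrophage markers 2 were higher in IR than in WI and 4 lower. The 2 were Marco (FPKM 20.9 in sham, 12.6 in WI and 25.3 in IR) and Cd68 (18.5, 12.3 and 18.5). The part of these cell types in the level of Entpd1 was not tested. In bulk tissue, fewer cells of a type and less RNA per cell cannot be told apart.

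Entpd5 (chromosome 12 from 84373857 to 84409029) is a relative of Entpd1 that works in the endoplasmic reticulum on UDP and GDP during protein glycosylation. Its FPKM was 50.3 in sham (23.4 to 77.2), 57.01 in WI (26.7 to 87.3) and 38.4 in IR (18.4 to 58.4). The IR sample held the lowest value, and the bounds of all 3 overlapped. The difference was 0.18 (SE 0.53) between WI and sham, -0.56 (SE 0.53) between IR and WI and -0.38 (SE 0.53) between IR and sham.

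Nt5e (CD73, chromosome 9 from 88327609 to 88372089) makes extracellular adenosine and is known as a hypoxia-responsive gene in several tissues. Its FPKM was 10.7 in sham (5.74 to 15.6), 7.82 in WI (4.18 to 11.5) and 5.07 in IR (2.64 to 7.50). Sham was the highest and IR the lowest, and the bounds of sham and IR overlapped between 5.74 and 7.50. The difference was -0.40 (SE 0.43) between WI and sham, -0.54 (SE 0.41) between IR and WI and -0.94 (SE 0.42) between IR and sham. In the last comparison 2.59% of all genes lay lower. On the plain ratio of FPKM the sham sample was 2.11-fold above the IR sample. Markers of several non-parenchymal cells were lower in the IR sample too, with 5 of 6 stellate cell markers (summed FPKM 182 in sham, 125 in WI and 122 in IR), 5 of 6 sinusoidal endothelial markers and 5 of 6 Kupffer cell markers below sham. One of these 5 Kupffer cell markers, Cd68, was nearly equal in the 2 samples, at 18.52 in sham and 18.51 in IR. The part of these cell types in the level of Nt5e was not tested.

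The genes around the AMP step did not follow a common direction. Enpp1, which cuts ATP to AMP and pyrophosphate, went from an FPKM of 11.4 in sham (6.11 to 16.7) and 10.5 in WI (5.62 to 15.3) to 5.77 in IR (2.99 to 8.55). Its difference between IR and sham was -0.87, near that of Nt5e. Enpp3, of the same family, had 8.89, 10.7 and 11.7, Alpl, an alkaline phosphatase that can also produce adenosine, had 5.71, 4.48 and 6.81, and the ectonucleotidases Entpd2 and Entpd8 stayed within 1.69 to 1.77 and 24.2 to 24.9 across the 3 samples. A wider list of 16 genes held ectonucleotidases, their relatives and other enzymes. Not all of them act on the AMP step, and Entpd5 works inside the cell. In this list 13 reached an FPKM of 1, and 0 of them changed at least 2-fold in any comparison. From sham to IR 8 were lower and 5 higher, with a median of -0.029, whereas after rescaling of FPKM to a common sum (TPM) all 13 were lower and 3 passed 2-fold. As TPM 17.4% of all genes passed 2-fold between IR and sham, 14.4% downward, and the median of all genes was -0.45, against 7.5% passing as deposited.

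Adora1 (chromosome 1 from 134193448 to 134235431, a locus that the tables share with Mybph, which was listed at 0) encodes the Gi-coupled A1 receptor. Its FPKM was 5.56 in sham (2.77 to 8.34), 3.57 in WI (1.60 to 5.54) and 3.89 in IR (1.85 to 5.94). Sham was the highest and the bounds overlapped in every pair. The differences were -0.52 (SE 0.44) between WI and sham, 0.099 (SE 0.43) between IR and WI and -0.42 (SE 0.43) between IR and sham. It was the most abundant of the 4 adenosine receptors in every sample and the only one of them to reach an FPKM of 1.

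Adora2b (chromosome 11 from 62248984 to 62266452) encodes the Gs-coupled A2B receptor, which needs high adenosine. Its FPKM was 0.0227 in sham (0 to 0.0692), 0.0405 in WI (0 to 0.102) and 0.394 in IR (0.0766 to 0.711). The IR bounds lay above those of sham, though not as TPM, and overlapped those of WI. The bounds correspond to a relative standard deviation of 102% in sham, 76.3% in WI and 40.3% in IR, whereas the other 9 genes had 23.1% to 40.4%. An error as large as the level itself is what about 1 fragment gives, so no fold change is quoted for this gene. On the log2(FPKM + 1) scale the difference between IR and sham was 0.45 (SE 0.17), which the pseudocount holds down, and 21.5% of all genes had a larger one. Adora3, the receptor of mast cells and some leukocytes, was likewise highest in IR, at 0.115, 0.0853 and 0.441, with bounds that overlapped, and Adora2a had 0.731, 0.717 and 0.580. In the IR sample 5 of 5 neutrophil markers found in the tables were higher than in sham (summed FPKM 24.4 in sham, 18.8 in WI and 457 in IR), as were 4 of 4 monocyte markers (5.48, 3.82 and 18.3), or 3 of 4 as TPM. Their part in the levels of Adora2b and Adora3 was not tested.

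**Figure D2:**
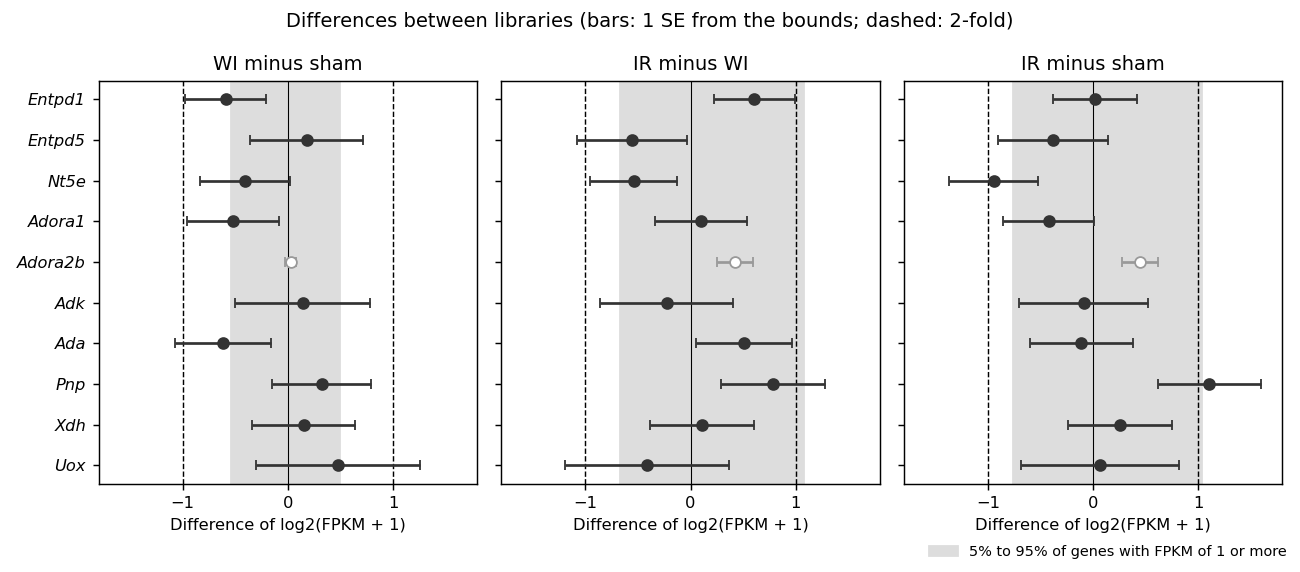
Log2(FPKM + 1) differences for the 10 genes in 3 panels, 1 per pair of groups, with bars of 1 SE from the deposited bounds, grey bands for the middle 90% of all 10792 genes and dashed lines at 2-fold. Open symbols mark Adora2b, which stayed below an FPKM of 1. Pnp at 1.11 and Nt5e at -0.94 lie outside the grey band between IR and sham, as do Entpd1 at -0.59 and Ada at -0.62 between WI and sham.

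Inside the cell, Adk (chromosome 14 from 21052574 to 21448569) phosphorylates adenosine back to AMP and is abundant in hepatocytes. Its FPKM was 352 in sham (136 to 568), 388 in WI (137 to 638) and 331 in IR (135 to 527). The values differed little beside their bounds, with differences of 0.14 (SE 0.64), -0.23 (SE 0.63) and -0.088 (SE 0.61) for WI against sham, IR against WI and IR against sham. Ada (chromosome 2 from 163726571 to 163750239), which deaminates adenosine to inosine, was by contrast among the low genes. Its FPKM was 2.16 in sham (0.642 to 3.67), 1.05 in WI (0.201 to 1.90) and 1.92 in IR (0.509 to 3.34), so WI was the lowest and the bounds overlapped. The difference was -0.62 (SE 0.46) between WI and sham and 0.51 (SE 0.46) between IR and WI, where again the WI sample enters both. On the plain ratio sham was 2.05-fold above WI. Its FPKM was below that of Adk in every sample, and the bounds of the 2 genes did not overlap in any.

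Pnp (chromosome 14 from 50944303 to 50953412) cleaves inosine to hypoxanthine and guanosine to guanine. Its FPKM was 29.6 in sham (15.6 to 43.6), 37.2 in WI (19.3 to 55.1) and 64.8 in IR (31.9 to 97.6). Sham was the lowest and IR the highest, and the bounds of sham and IR overlapped between 31.9 and 43.6. The difference was 0.32 (SE 0.47) between WI and sham, 0.78 (SE 0.49) between IR and WI and 1.11 (SE 0.49) between IR and sham, a 2.19-fold ratio of FPKM, and 4.49% of all genes lay higher in the last comparison. The neighbouring paralog Pnp2 (chromosome 14 from 50956141 to 50964749) had an FPKM of 2.05, 2.10 and 2.99 in sham, WI and IR. Reads of such copies may be split between them, so both values carry that uncertainty. Among genes outside the purine and marker lists, the profiles closest to Pnp over the 3 samples were those of Cyp2f2 (FPKM 359.6, 442 and 771), a cytochrome P450, and Atf5 (54.2, 67.7 and 119), a stress-responsive transcription factor, at Euclidean distances of 0.0172 and 0.0188 on the centred log2 scale. Both distances are below the SE of every Pnp difference. With 3 single libraries and so many genes to pick from, close profiles are easily found, and a link between the genes was not tested. The neutrophil and monocyte markers given above were higher in the same library. So were 3 of 3 erythroid markers, with a summed FPKM of 419 in sham, 395 in WI and 1184 in IR. Cholangiocyte and platelet markers were higher than in sham in 4 of 4 each, or 3 and 2 as TPM. By contrast 6 of 6 T, NK and B cell markers and most Kupffer, endothelial and stellate cell markers were lower. The part of any of these cell types in the level of Pnp was not tested.

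Xdh (chromosome 17 from 73883908 to 73950182) encodes xanthine dehydrogenase, which oxidizes hypoxanthine to xanthine and urate and can be converted to the oxidase form. Its FPKM was 30.3 in sham (15.3 to 45.3), 33.7 in WI (16.9 to 50.6) and 36.5 in IR (18.1 to 54.8). The bounds of the 3 samples lay almost on top of each other, and the differences were 0.15 (SE 0.49), 0.11 (SE 0.50) and 0.26 (SE 0.49) in the order WI against sham, IR against WI and IR against sham. Uox (urate oxidase, in a locus on chromosome 3 from 146581373 to 146631483 that the tables share with Dnase2b) had an FPKM of 822 in sham (218 to 1425), 1144 in WI (238 to 2051) and 860.1 in IR (225 to 1495). WI was the highest and IR was near sham, inside wide bounds, with differences of 0.48 (SE 0.78), -0.41 (SE 0.78) and 0.066 (SE 0.75). Dnase2b itself was low, at 7.45, 8.07 and 6.86. Of the enzymes that follow urate oxidase, Urah had 212, 254 and 319.6, a difference of 0.59 between IR and sham that was 0.013 as TPM, and Urad 52.7, 52.6 and 44.9, while Allc, the allantoicase, was listed at 0 in all samples. Aox3, an aldehyde oxidase related to Xdh, had 34.7, 46.4 and 59.2, with a difference of 0.75 between IR and sham that was 0.18 as TPM, and Aox1 had 7.57, 7.39 and 6.88.

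Promoter sequences are shown for Pnp and Nt5e, which as deposited differed most of the 10 genes between IR and sham, and for Adora2b. The last stayed below an FPKM of 1, and its IR and sham bounds were apart as deposited but not as TPM. The 250 bases before the RefSeq start sites in GRCm38.p6 are given 5′ to 3′, all on the plus strand. They are chr14:50944053-50944302 for Pnp, chr9:88327359-88327608 for Nt5e and chr11:62248734-62248983 for Adora2b. Capitals mark matches to 5 motifs searched on both strands, the hypoxia response element core ACGTG, the cAMP response element TGACGTCA, the AP-1 site TGANTCA, the C/EBP palindrome TTGCGCAA and the heat shock half-sites GAANNTTC, and no matches overlapped. The motifs were chosen with the data known, and the C/EBP palindrome after the Pnp sequence had been read.
Pnp: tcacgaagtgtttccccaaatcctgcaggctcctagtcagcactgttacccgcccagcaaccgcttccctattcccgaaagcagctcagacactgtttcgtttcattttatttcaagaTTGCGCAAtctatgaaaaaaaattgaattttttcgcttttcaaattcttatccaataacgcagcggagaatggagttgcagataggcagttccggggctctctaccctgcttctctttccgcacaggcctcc
Nt5e: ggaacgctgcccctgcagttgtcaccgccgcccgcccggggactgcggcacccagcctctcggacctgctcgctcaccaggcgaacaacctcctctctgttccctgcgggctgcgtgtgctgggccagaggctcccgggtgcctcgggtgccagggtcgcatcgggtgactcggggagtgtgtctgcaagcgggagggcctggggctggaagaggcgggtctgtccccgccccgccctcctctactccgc
Adora2b: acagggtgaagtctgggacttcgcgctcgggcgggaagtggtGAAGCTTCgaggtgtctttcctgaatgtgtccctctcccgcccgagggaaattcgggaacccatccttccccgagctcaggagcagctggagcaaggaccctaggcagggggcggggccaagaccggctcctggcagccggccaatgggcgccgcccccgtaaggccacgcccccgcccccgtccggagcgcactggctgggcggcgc
In these windows Pnp held TTGCGCAA from 132 bases before its start site, a motif present in 0.164% of the 32851 promoter windows of this length, and Adora2b held GAAGCTTC from 208 bases before its start site, a motif present in 6.69%. Nt5e held none of the 5. The GC content was 46.8% for Pnp, 72% for Nt5e and 69.6% for Adora2b, with a median of 52.4% over all windows. Windows were found for 9 of the 10 genes, not for Xdh. The core ACGTG, present in 16.6% of all windows, occurred in those of Adora1 and Entpd5, TGANTCA, present in 6.75%, in that of Adora1, and TGACGTCA, present in 1.55%, in none. Such matches describe letters in a window and are not evidence of binding.

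The wider purine pathway was followed in 10 lists with 103 genes, the 10 genes included. Of these, 73 reached an FPKM of 1 in at least 1 sample. From sham to WI 0 of the 73 changed at least 2-fold, from WI to IR 1 rose and 1 fell, and from sham to IR 4 were higher and 0 lower, beside the shares of 1.85%, 7.21% and 7.5% for all genes. As TPM the balance turned, with 1 higher and 10 lower between IR and WI and again 1 higher and 10 lower between IR and sham, where 14.5% and 17.4% of all genes passed 2-fold. Gja1, connexin 43, whose hemichannels can release ATP, was as deposited the only one of the 73 with non-overlapping bounds, against both sham and WI, beside 3.82% and 3.61% of all genes, at an FPKM of 2.83 in sham (1.31 to 4.34), 2.26 in WI (0.998 to 3.52) and 10.01 in IR (5.35 to 14.7). Gjb2, connexin 26 of hepatocytes, went from 82.5 (40.5 to 125) in sham and 112 (52.9 to 171) in WI to 193 (82.8 to 304) in IR. Slc22a7, an organic anion transporter that carries urate, had 12.3 (6.48 to 18.1), 21.5 (11.5 to 31.4) and 33.02 (17.6 to 48.4). Pnp was the other gene past 2-fold between IR and sham. As TPM Gja1 still differed by 1.12 between IR and sham, while Gjb2 with 0.64 and Slc22a7 with 0.82 were below the threshold. The bounds were then apart for Ak4, Gja1 and P2ry4 between IR and WI and for Enpp1, Nt5e and P2ry1 between IR and sham, 3 genes each, beside 4.7% and 6.07% of all genes. The nucleotide receptor genes P2ry1 and P2ry4 are named here after their values were seen. Ak4, a mitochondrial adenylate kinase known as a hypoxia target, was the gene that fell between WI and IR, from 29.1 (13.8 to 44.3) to 10.4 (5.39 to 15.5), a difference of -1.39, with 20.8 (10.1 to 31.5) in sham.

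Salvage and synthesis genes showed small differences. Hprt, which returns hypoxanthine and guanine to nucleotides, had an FPKM of 34.3, 33.4 and 49.6 in sham, WI and IR, and Aprt, which does the same for adenine, had 31.9, 33.1 and 55.03. Their differences between IR and sham were 0.52 and 0.77, but -0.051 and 0.20 as TPM. All 15 de novo synthesis genes reached an FPKM of 1, and 12 were higher and 3 lower in IR than in sham. Their median was 0.29, beside 0.055 for all genes, with a range from -0.17 to 0.65 and 0 past 2-fold. As TPM 2 were higher and 13 lower, with a median of -0.27, beside -0.45 for all genes. The equilibrative nucleoside transporter Slc29a1, which moves adenosine across the membrane, had 108, 97.5 and 86.1. The deaminases of AMP, Ampd2 and Ampd3, had 3.11, 4.83 and 4.18 and 0.600, 0.403 and 0.598, the intracellular nucleotidase Nt5c2 had 4.05, 3.33 and 3.86, and Gda, the guanine deaminase, had 8.22, 9.33 and 6.76. Of the 9 P2 nucleotide receptors that reached an FPKM of 1, 7 were lower and 2 higher in IR than in sham, with a median of -0.62 and 0 past 2-fold, and as TPM 8 were lower, 5 of them past 2-fold, on a scale where 14.4% of all genes were lower by that much.

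**Figure D3:**
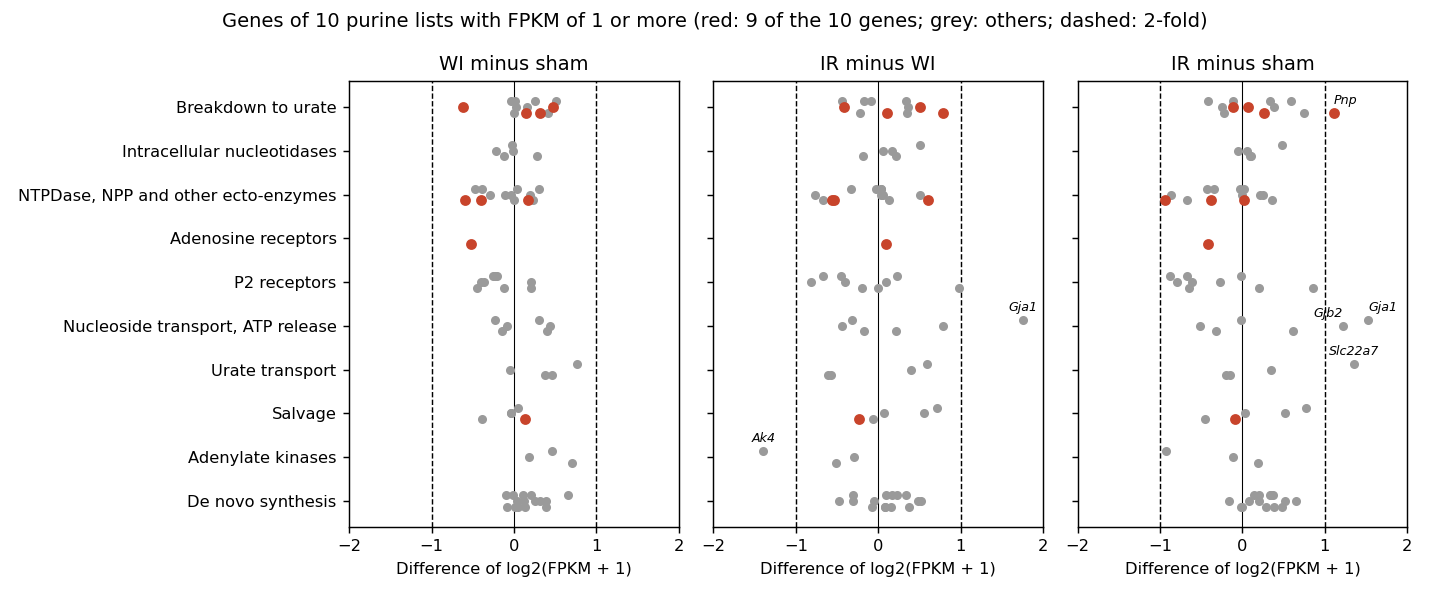
Differences of log2(FPKM + 1) in the 3 comparisons for the 73 genes of 10 purine lists that reached an FPKM of 1, 1 point per gene, red for the 9 genes described here and grey for the others, with dashed lines at 2-fold. Genes past 2-fold are named, and they are Gja1 and Ak4 between IR and WI and Gja1, Slc22a7, Gjb2 and Pnp between IR and sham.

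Because the summed FPKM of the IR sample was higher than that of the others, scaling mattered for its comparisons. As TPM, the median difference of all genes between IR and sham was -0.45 and the numbers of genes past 2-fold were 319 higher and 1554 lower, compared with 577 higher and 232 lower as deposited. Between IR and WI they were 385 higher and 1185 lower, compared with 624 and 154. On that scale Pnp differed between IR and sham by 0.54 and Nt5e by -1.53, so Pnp was no longer past 2-fold and Nt5e was, with non-overlapping bounds. Taken relative to the median of all genes, Pnp differed by 1.05 as deposited, 1.03 under scaling by the median ratio, 1.01 with a common sum without the Mup genes and 0.996 as TPM. The corresponding values for Nt5e were -0.9997, -1.003, -1.08 and -1.08. A scaling moves all genes of a library by about the same amount, so these values are close by construction. The small differences of Xdh (0.26 as deposited and -0.31 as TPM between IR and sham), Uox (0.066 and -0.52) and Entpd1 (0.014 and -0.50) changed sign. Between IR and WI those of Xdh (0.11 and -0.43) and Adora1 (0.099 and -0.36) did so too. Relative to the median of all genes, Xdh differed between IR and sham by 0.20 as deposited and 0.15 as TPM. On the same scales Uox differed by 0.011 and -0.061 and Entpd1 by -0.041 and -0.042. Between IR and WI the relative values were 0.083 and 0.028 for Xdh and 0.072 and 0.091 for Adora1. Of these, only that of Uox changed sign.

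**Figure D4:**
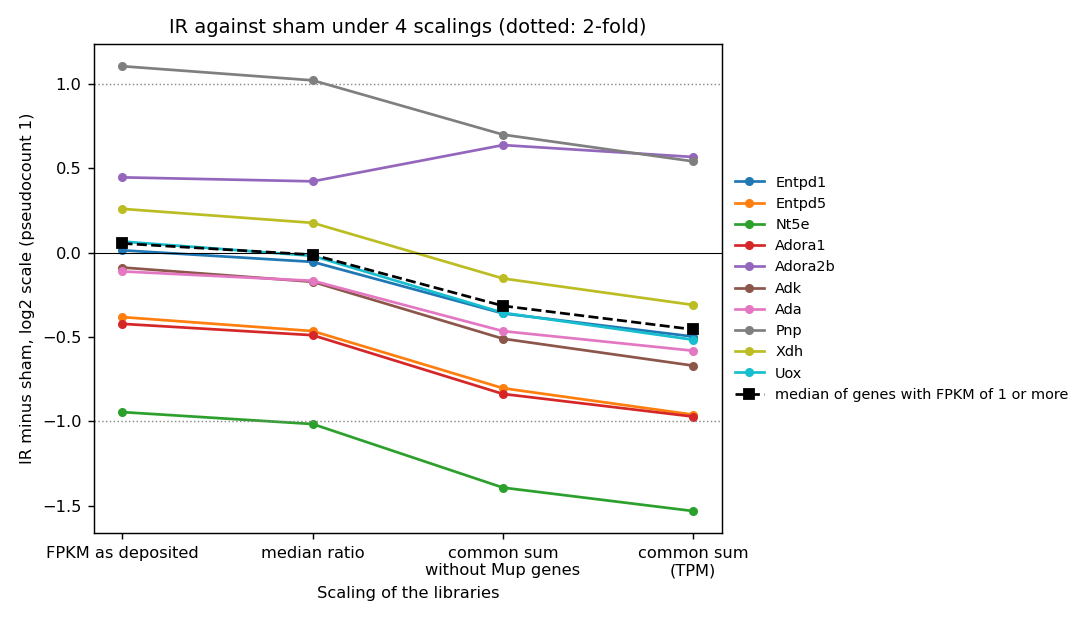
Difference between IR and sham on the log2 scale with a pseudocount of 1 for each of the 10 genes (solid lines) and the median of the 10792 genes (dashed line, squares), with FPKM as deposited and under 3 other scalings, and dotted lines at 2-fold. Pnp falls from 1.11 to 0.54 and Nt5e from -0.94 to -1.53 while the median moves from 0.055 to -0.45.

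**Figure D5:**
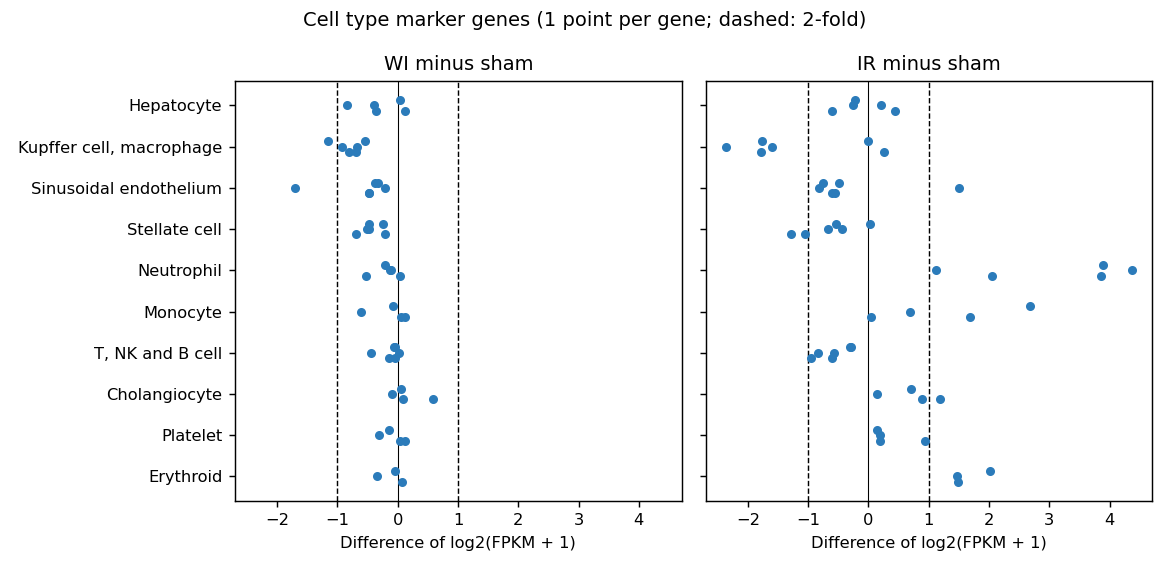
Log2(FPKM + 1) differences from sham, for WI and for IR, of cell type marker genes, 1 point per gene, with dashed lines at 2-fold. The neutrophil markers lie to the right between IR and sham, at 1.12 to 4.37, and the 6 stellate cell, 6 Kupffer cell and 6 sinusoidal endothelial markers are all below 0 between WI and sham.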

How the data were processed

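Liver mRNA of 3 libraries, sham, WI and IR, was analysed. The authors mapped read pairs to mm10 with TopHat2 2.0.9 and deposited the FPKM of each gene, its 95% confidence bounds and a status from Cuffdiff (Cufflinks 2.0.2, version from the submitters' processing notes) at default parameters. The files hold no counts. The FPKM of genes whose bounds are as wide as those of about 1 fragment differed by a median ratio of 0.916 between WI and sham (804 genes) and 1.12 between IR and sham (615 genes), which gives relative depth only roughly. The median relative standard deviation from the bounds was 26.0% in each sample.

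FPKM + 1 was put on the log2 scale. Each SE was derived from the distance between the FPKM and its upper bound, taken as 2 standard deviations. Genes were considered if 1 or more samples reached an FPKM of 1, and a 2-fold difference was the threshold. Starts in the files count from 0, so 1 was added. List symbols were matched to the files, 4 of 159 through RefSeq synonyms, and 1, Ly6g, had no match. Named genes are the 10 genes, genes of the purine lists past 2-fold, direct partners of the 10 and the 2 nearest profiles of a gene past 2-fold. The members, lists and rules were chosen with earlier results of these data known. The calculations were tested on simulated data. Alternatives were pseudocounts of 0.1, 0.01 and none, other filters, folds of 1.5 and 4, and 3 scalings. Promoter sequences and synonyms are from RefSeq (GRCm38.p6). Python 3.11.15, numpy 2.4.6, pandas 2.3.3 and matplotlib 3.10.9 were used.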

Additional observations from a re-analysis of the deposited data

How the results depend on the processing

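Of the 9 genes that reached an FPKM of 1, the count past 2-fold for WI against sham was 0, and became 1 (Ada) with a pseudocount of 0.01 or none and 2 (Ada and Entpd1) at a threshold of 1.5-fold. Between IR and WI it was 0, and became 2 at 1.5-fold (Entpd1 and Pnp). It also became 2 as TPM (Nt5e and Entpd5), where 14.5% of all genes passed 2-fold. Between IR and sham it was 1 (Pnp), and became 2 (Pnp and Nt5e) with a pseudocount of 0.1, 0.01 or none, under median-ratio scaling and at 1.5-fold, and 0 at 4-fold. As TPM and with a common sum without the Mup genes the count was again 1, but the gene was Nt5e. Of all genes 17.4% and 13.5% passed 2-fold on these 2 scales, and 7.35% did so under median-ratio scaling. The count with non-overlapping bounds between IR and sham was 0, and became 1 with no filter (Adora2b), 1 as TPM and 1 with a common sum without the Mup genes (Nt5e in both). On the latter 2 scales the bounds were apart for 6.07% and 4.68% of all genes. For the other pseudocounts, folds and filters no share of all genes was computed, so those counts have no background. Of 180 single differences recomputed under an alternative, 157 moved by less than their SE, 23 by more, and 12 small ones changed sign, all in comparisons with the IR sample and under a scaling. No paired analysis was possible because each group has 1 library, and leaving out a replicate was not possible for the same reason. The depth limits low genes such as Adora2b and Adora3, whose sham and WI lower bounds were 0.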
